A study of Mus musculus with 13 samples.

Results

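The genes of the cytosolic ribosomal proteins were followed across 9 RNA-seq libraries of mouse oligodendrocyte-lineage cells. They were chosen by symbol alone, as every row named Rpl or Rps with a number, with the letters a, l, x or y allowed after it, together with Rplp0, Rplp1, Rplp2 and Rpsa. Pseudogene rows and the Rps6k kinases were left out. The rule found 80 genes among the 13549 of the count table, 47 of the large subunit and 33 of the small subunit, and all 80 passed the filter on low counts. RefSeq lists 5 further protein-coding symbols that match the rule, Rpl10l, Rpl24, Rpl32l, Rpl39l and Rpl3l, which were not analysed here.

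All libraries came from cells of C57BL/6 mouse brain taken at postnatal day 6 or 7. Oligodendrocyte precursor cells (OPCs) were kept in DMEM-Sato medium containing PDGF and NT-3, with 2 control libraries and 3 Eed cKO libraries. For immature oligodendrocytes (iOLs), PDGF was withdrawn and the thyroid hormone T3 given, and cells were taken on day 2, with 2 control and 2 Eed cKO libraries. OPC control 1 and OPC cKO 1 and 2 were from postnatal day 7. The other OPC libraries and all iOL libraries were from day 6, so stage is partly confounded with postnatal day. The Eed protein belongs to PRC2, the Polycomb complex that methylates histone H3, and cKO stands for conditional knockout. Control and cKO were taken from the sample titles, because the genotype entry reads the same for both. The Cre driver, the deleted stretch of Eed, the controls' alleles and the number of animals in a library are not stated in the labels. Whether replicates were separate animals or cultures is not stated either, so p-values reflect only the differences among these libraries, which may be technical.

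The ribosome is built of a small subunit, which reads the mRNA, and a large subunit, which joins amino acids. Each consists of ribosomal RNA and a set of ribosomal proteins that cells make in balanced amounts. The mRNAs of these proteins typically start with a C followed by a run of pyrimidines, the TOP motif, through which mTORC1 and the RNA-binding protein LARP1 control their translation. In the oligodendrocyte lineage, mTORC1 signalling is known for its part in differentiation and myelination. Translation itself was not measured here, only mRNA.

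RefSeq start sites placed a promoter window for 59 of the 80 genes, 9 of them with more than 1 start. A run of at least 5 pyrimidines that begins with a C at the start, the C included, was found in 13 of the 59, or 22.0%, against 3.02% of the 10589 table genes with a promoter entry. A run of at least 8 pyrimidines overlapping the 10 bases on either side of the start was found in 29 of 59 (49.2%), against 17.1%. The windows of 8 members are shown because these genes either departed from the common pattern described below or are a parent, paralogue or other member set beside them. Each runs from 40 bases before the start to 20 bases at and after it, read 5′ to 3′ on the gene's strand in GRCm38.p6, the build the files call mm10. Capitals mark the longest run of C and T that overlaps the 10 bases on either side of the start.
Rpl13, chr8:123102310-123102369, plus strand: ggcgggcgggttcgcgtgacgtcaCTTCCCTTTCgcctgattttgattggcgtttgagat
Rpl13a, chr7:45128726-45128785, minus strand: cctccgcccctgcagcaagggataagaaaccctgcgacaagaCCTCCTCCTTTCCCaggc
Rpl34, chr3:130730318-130730377, minus strand: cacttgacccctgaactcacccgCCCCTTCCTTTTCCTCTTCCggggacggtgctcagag
Rpl4, chr9:64173347-64173406, plus strand: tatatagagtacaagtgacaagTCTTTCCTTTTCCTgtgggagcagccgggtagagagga
Rpl22, chr4:152324396-152324455, plus strand: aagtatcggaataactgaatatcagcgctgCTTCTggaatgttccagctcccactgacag
Rpl22l1, chr3:28805468-28805527, plus strand: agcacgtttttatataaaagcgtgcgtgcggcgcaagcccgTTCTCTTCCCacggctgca
Rpl7l1, chr17:46782637-46782696, minus strand: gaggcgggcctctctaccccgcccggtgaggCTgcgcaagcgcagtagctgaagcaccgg
Rps27l, chr9:66946046-66946105, plus strand: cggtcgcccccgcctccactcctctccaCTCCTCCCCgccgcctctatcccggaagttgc
The run was 20 bases long in Rpl34, 14 in Rpl13a and Rpl4, 10 in Rpl13 and Rpl22l1, 9 in Rps27l, 5 in Rpl22 and 2 in Rpl7l1. Over the members with a window its median length was 7.0 bases, against 4.0 over all genes with one. Within the whole promoter entry, 250 bases before the start to 50 after it, the sequence CCGGAAG, a match to ETS-type motifs, stood on either strand in 42.4% of members and 19.1% of all genes. AANATGG, a match to the core of YY1-type motifs, stood in 32.2% and 17.1%. The E-box CACGTG, bound by MYC with MAX, stood in 10.2% of members and 11.6% of all genes, and TATAAA in 11.9% and 8.36%.

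Total counts were between 17417529 and 19680398 per library. Eed, given as CPM, the count rate per library scaled by TMM factors, was at 21.7 and 16.8 in control OPCs and at 13.3, 11.8 and 12.5 in cKO OPCs. It was at 18 and 21.2 in control iOLs and at 14.6 and 12.1 in cKO iOLs, so that cKO libraries lay below controls at both stages, but with edgeR adjusted p-values of 0.0847 and 0.0973 neither difference passed 0.05. OPC markers were present in all libraries, and their summed level was between 16780 and 20690 CPM in OPCs and between 6724 and 10341 CPM in iOLs. Myelin genes and astrocyte genes were also present in the OPC libraries, the astrocyte markers at a sum of 3379 to 10375 CPM. In such bulk samples, fewer cells of a type and less RNA per cell cannot be told apart.

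Ribosomal protein genes took close to the same part of the RNA in 8 of the 9 libraries, and more in the first control OPC library. They held 3.71% of the counts of OPC control 1 and 2.08% of those of OPC control 2. In the 3 cKO OPC libraries they held 2.22%, 2.14% and 2.29%. In iOLs they held 2.28% and 2.23% of the control libraries and 2.15% and 2.03% of the cKO libraries. All libraries but OPC control 1 therefore lay between 2.03% and 2.29%, and OPC control 1 lay above them all. The group means were 2.89% ± 1.15 (SD, n = 2) in control OPCs, 2.22% ± 0.0734 (SD, n = 3) in cKO OPCs, 2.25% ± 0.0304 (SD, n = 2) in control iOLs and 2.09% ± 0.0858 (SD, n = 2) in cKO iOLs. The control OPC mean thus rested on 2 libraries that stood apart from each other, and every comparison that uses control OPCs is given below with and without the first.

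**Figure D1:**
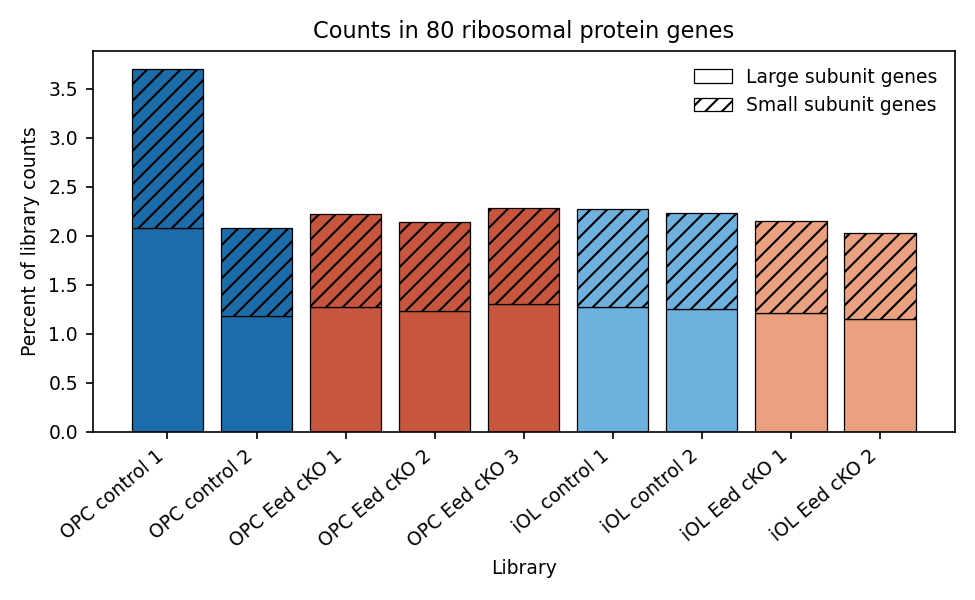
Percent of each library's counts that fell on the 80 ribosomal protein genes, 1 bar per library coloured by group, divided into large-subunit genes (plain) and small-subunit genes (hatched). OPC control 1 stands at 3.71%, and the other 8 libraries lie between 2.03% and 2.29%.

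The raised level in OPC control 1 covered the whole set. Against the mean of the other 4 OPC libraries, the members' median log2 ratio was 0.79, or 1.73-fold, where the median over all genes was 0.01. The median was 0.78 for the large subunit and 0.82 for the small subunit. OPC control 1 was the highest of the 5 OPC libraries for 80 of 80 members, against 33.9% of all genes, and the highest of all 9 libraries for 78, against 24.0%. The exceptions were Rpl34 and Rpl7l1. Against OPC control 2 alone the median was 0.83, with a range of 0.12 to 1.27. Between the size of the ratio and abundance, Pearson's r was 0.04 across the 80 members, which share the same libraries.

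Members differed in how far they were raised. Rpl37a, a zinc-binding protein of the large subunit, was at 402 CPM in OPC control 1 and at 194 in OPC control 2, and at 195, 187 and 201 in the cKO OPC libraries. Its log2 ratio of 1.05 was the largest of the set, followed by Rpl41 at 1.03, Rpl13 at 1.02, Rpl36 at 1.01. At the other end was Rpl7l1, a paralogue of Rpl7, at 98.0 CPM in OPC control 1 and 90.3 in OPC control 2, a pair that lay close together. Its log2 ratio was 0.38, the lowest of the set, with Rpl10, which sits near the subunit interface, at 0.41, Rpl15 at 0.42, Rpl22 at 0.45 and the stalk protein Rplp0 at 0.50 next to it.

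**Figure D2:**
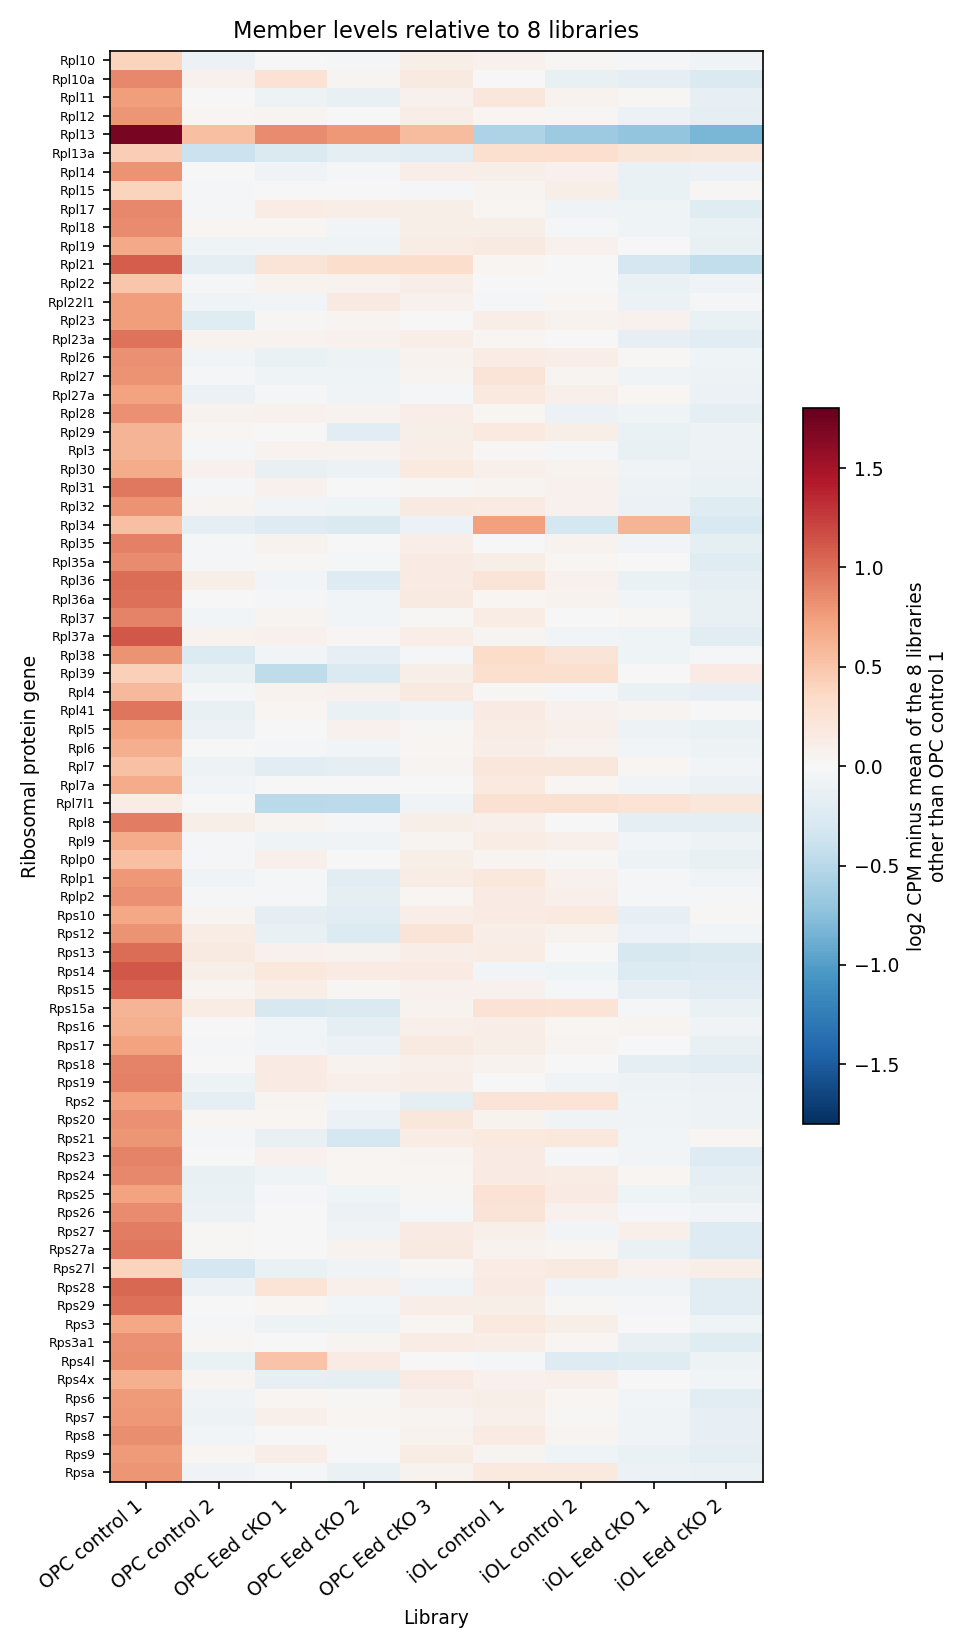
Levels of 77 of the 80 members in the 9 libraries, as log2 CPM minus the member's mean over the 8 libraries other than OPC control 1, red for higher and blue for lower. The column of OPC control 1 is red throughout, while the rows of Rpl13, Rpl34 and Rpl7l1 differ from their neighbours in the other 8 libraries.

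Ribosomal genes outside the rule moved with the set in OPC control 1. Fau, which encodes a small-subunit protein fused to a ubiquitin-like peptide, was at 259 CPM there and at 124 to 148 CPM in the other OPC libraries. Rack1, a scaffold protein of the small subunit, was at 885 CPM against 561 to 622 CPM. Both were highest in OPC control 1.

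The same library was also raised in other gene groups. Nuclear-encoded subunits of oxidative phosphorylation had a median log2 ratio of 0.80 to the other OPC libraries, with OPC control 1 highest for 72 of 77. Proteasome subunits were at 0.60 (33 of 37), elongation factors and other TOP-type genes at 0.58 (22 of 27) and mitochondrial ribosomal proteins at 0.57 (71 of 77). Initiation factors were at 0.32 (33 of 52), ribosome biogenesis factors at 0.29 (46 of 65) and cytosolic aminoacyl-tRNA synthetases at 0.26 (12 of 17). Regulators of the Myc and mTORC1 pathways were near 0, at -0.04 (9 of 28).

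Among cell type markers, those of myelin and the erythroid gene Hbb-b1 were raised in this library as well. Myelin markers were highest in OPC control 1 for 13 of 13 genes, with a median of 1.37 and a summed level of 7505 CPM against 1462 to 3489 CPM in the other OPC libraries. Astrocyte markers summed to 3903 CPM, within the range of the other OPC libraries, and neuron markers had a median log2 ratio of 0.07. OPC markers summed to 16780 CPM, below the 17983 to 20690 CPM of the other OPC libraries, with a median log2 ratio of 0.26. Of the erythroid genes only Hbb-b1 was in the table, at 2877 CPM against 562 to 1044 CPM in the other OPC libraries. Lars2 and Mir6236, 2 rows that can collect reads of ribosomal RNA, were at 5380 and 4456 CPM in OPC control 1 and at no more than 381 and 172 CPM elsewhere. The part of cell makeup, RNA quality and the library kit in the raised ribosomal protein level was not tested; with Lars2 and Mir6236 left out of the library total the members still held 3.74% of OPC control 1. The labels name a stranded poly(A) kit for larger RNA amounts and an amplifying kit for smaller ones, without saying which library had which.

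**Figure D3:**
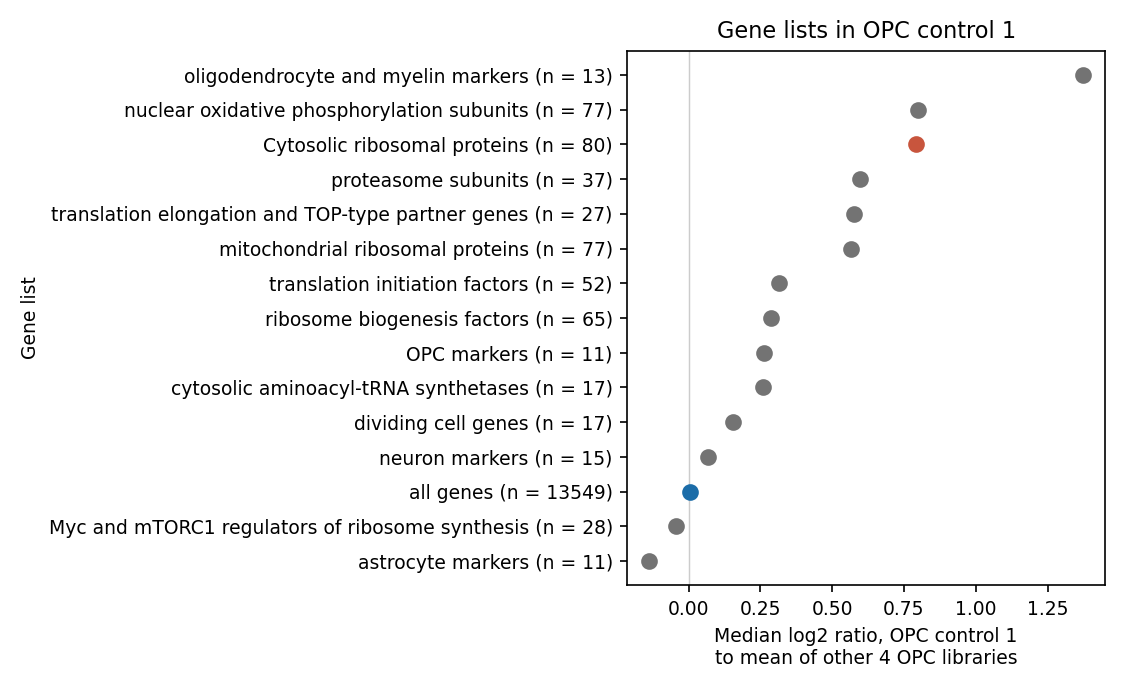
Median log2 ratio of OPC control 1 to the mean of the other 4 OPC libraries, for the ribosomal protein genes (red), the other gene lists (grey) and all genes (blue), with the number of genes measured. Oxidative phosphorylation subunits (0.80) lie beside the ribosomal proteins (0.79), and myelin markers (1.37) above both.

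In OPCs, no ribosomal protein gene changed between Eed cKO and control at an edgeR adjusted p under 0.05. The counts were 0 higher and 0 lower of 80, where 2.94% of all genes were called higher and 0.303% lower. At an unadjusted p under 0.05 there were 0 higher and 26 lower, a threshold at which all genes were not counted. DESeq2 called 1, Rps15a, lower, where it called 239 of all genes lower. The log2 fold changes were all below 0, with a median of -0.43 and a range of -0.66 to -0.14, where the median of all genes was -0.02 and 52.7% of them were below 0. Rps15a, a small-subunit protein, had the lowest adjusted p. It was at 374 and 268 CPM in control OPCs and at 199.7, 203 and 256 CPM in cKO OPCs. All 3 cKO libraries were below both controls, cKO 3 only slightly, and the log2 fold change was -0.55 ± 0.16 (SE; edgeR adjusted p = 0.108).

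The members with the largest and smallest fold changes also did not pass. Rpl36 of the large subunit was at 281 and 151 CPM in control OPCs and at 136, 119.8 and 155 CPM in cKO OPCs. OPC control 2 lay within the cKO range, and the log2 fold change was -0.66 ± 0.22 (SE; edgeR adjusted p = 0.129). Rpl37a was at -0.62 ± 0.24 and Rps15 at -0.57 ± 0.24 (SE). Rps27l, a paralogue of Rps27 known as a p53 target, was at the other end. It was at 72.2 and 43.8 CPM in controls and at 50.3, 52.5 and 55.4 CPM in cKO OPCs, all 3 between the controls, with a log2 fold change of -0.14 ± 0.18 (SE; edgeR adjusted p = 0.648). Rpl10 (-0.14 ± 0.15) and Rpl22 (-0.18 ± 0.15) stood beside it.

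Groups did not overlap for 3 of 80 members, Rpl7l1, Rps13 and Rps15a, with every cKO library below both controls, against 17.4% of all genes. No member had every cKO library above both controls, against 16.9% of all genes. The direction of the whole set rested on OPC control 1. Without it, the median log2 fold change was 0.04, where that of all genes was -0.001. Without OPC control 2 it was -0.78, where that of all genes was 0.01. Between day 7 libraries, OPC control 1 against cKO 1 and 2, the median log2 difference was -0.81 with 0 of 80 members above 0. Between day 6 libraries, OPC control 2 against cKO 3, it was 0.10 with 76 of 80 members above 0, where the median of all genes was -0.01.

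In iOLs, where no library stood apart, the ribosomal protein genes were at slightly lower levels in Eed cKO, and none passed the test. The counts were 0 higher and 0 lower of 80, where 7.08% of all genes were called higher and 3.51% lower, and at an unadjusted p under 0.05 they were also 0 and 0. DESeq2 called 0. All 80 log2 fold changes were below 0, with a median of -0.17 and a range of -0.39 to -0.03, where the median of all genes was 0.00. Both cKO libraries lay below both controls for 69 of 80 members, against 34.3% of all genes, and above both for 0, against 33.6%. The members share these 4 libraries, so the 69 are not independent observations. Their share of counts ran from 2.03% to 2.28% over the iOL libraries. A similar range, 2.08% to 2.29%, was seen among OPC libraries other than OPC control 1. The 11 that overlapped included Rpl22l1, Rpl23, Rpl28, Rpl34, Rpl37, Rps16, Rps20, Rps27, Rps28 and Rps4l. Myelin markers moved in the same libraries, with 8 of 13 genes lower in cKO iOLs and a sum of 9996 and 9850 CPM in controls against 2409 and 3473 CPM in cKO iOLs. Astrocyte markers summed to 6912 and 7052 CPM in control iOLs and to 9780 and 11762 CPM in cKO iOLs, with 1 of 11 genes higher and 1 lower. Genes of dividing cells summed to 747 and 647 CPM in controls and to 1034 and 896 CPM in cKO iOLs, with 2 of 17 genes higher. The part of cell makeup in the ribosomal protein levels was not tested.

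Rpl21, a large-subunit protein, had the lowest fold change in iOLs. It was at 268 and 264 CPM in controls and at 212 and 193 CPM in cKO iOLs, with both cKO libraries below both controls. Its cKO difference was -0.39 ± 0.31 (SE; edgeR adjusted p = 0.545). Rps15a had the lowest adjusted p of the set, with 294 and 289 CPM in controls and 239.6 and 225 CPM in cKO iOLs. These groups did not overlap either, and the log2 fold change was -0.33 ± 0.18 (SE; edgeR adjusted p = 0.337). Rps13 and Rpl38 were both at -0.34. Fitted on the 4 iOL libraries alone, 10 members were called lower, among them Rpl21, Rps13, Rps15a and Rpsa, where 1552 of all 13549 genes were. With either control OPC library left out of the fit, the members' median log2 fold change stayed at -0.17.

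In the fit of all 9 libraries, the cKO effect was not shown to differ between the stages for any member. In the test of that difference 0 members were higher and 0 lower, against 0.945% and 0.886% of all genes, at an unadjusted p under 0.05 also 0, and DESeq2 called 0. The median difference was 0.25 on the log2 scale, where that of all genes was 0.07. Rpl41, the shortest ribosomal protein, had the largest difference at 0.47 ± 0.38 (SE), and Rpl21 the lowest at -0.09 ± 0.42 (SE). Over the alternative fits the difference ran from -0.18 to 0.92 for Rpl41 and from -0.86 to 0.41 for Rpl21. The median became -0.21 without OPC control 1, where that of all genes was 0.01. Without OPC control 2 it became 0.59, where that of all genes was 0.06. Without OPC cKO 3, Rpl7l1 alone was called, as higher, where 548 of all genes were called higher.

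**Figure D4:**
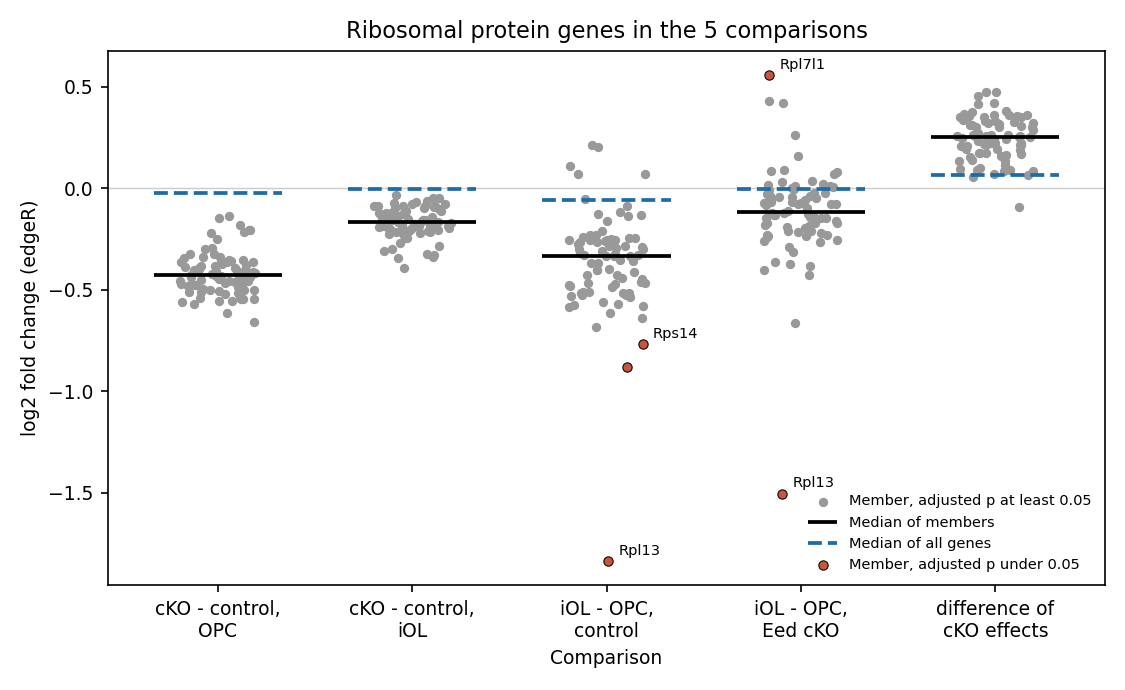
Log2 fold changes of the 80 members in the 5 comparisons, the difference of cKO effects included, 1 point per gene, red where it passed the edgeR test, with the median of the members (black) and of all genes (blue, dashed). All points of both cKO comparisons lie below 0 without passing, and Rpl13 lies far below the other members in both stage comparisons.

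During differentiation a few ribosomal protein genes left the common level, Rpl13 most of all. In controls, iOLs against OPCs, 0 members were higher and 3 were lower, where 21.0% of all genes were called higher and 25.3% lower. At an unadjusted p under 0.05, 0 were higher and 11 lower, again without a count over all genes. DESeq2 called 0 higher and 10 lower, where it called 3035 of all genes higher and 3382 lower. In Eed cKO cultures 1 member was higher and 1 lower, where 18.5% and 21.8% of all genes were called. With only the groups compared these counts became 2 and 10, where 2872 and 3339 of the 13549 genes were called. The called share of the members was 3.75% lower in controls and 1.25% in each direction in cKO cultures. The median log2 fold change was -0.33 in controls (all genes -0.06) and -0.12 in cKO cultures (all genes 0.00). The 2 stage comparisons use different libraries, and each shares its groups with the cKO comparisons above. With day 6 libraries alone, the members' median log2 difference with stage was 0.09 in controls and -0.19 in cKO cultures.

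Rpl13, a large-subunit protein encoded on chromosome 8 at 123102350 to 123105244 (mm10), fell in both genotypes. It was at 1269 and 564 CPM in control OPCs, 705, 667 and 576 CPM in cKO OPCs, 265 and 248 CPM in control iOLs and 239 and 219 CPM in cKO iOLs. Every iOL library was below every OPC library. Its log2 fold change was -1.84 ± 0.31 (SE; edgeR adjusted p = 0.00134), or 3.57-fold lower, in controls. In cKO cultures it was -1.50 ± 0.29 (SE; edgeR adjusted p = 0.00313), or 2.83-fold lower. The call was kept in 17 of 17 alternative fits in each genotype, and between day 6 libraries alone the log2 differences were -1.14 and -1.33.

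In controls Rps14 also passed as lower, a call that rested on OPC control 1. Rps14, a small-subunit protein at the decoding platform, was at 684 and 339.8 CPM in control OPCs, 360.3, 348 and 349 CPM in cKO OPCs, 304 and 297 CPM in control iOLs and 266 and 268 CPM in cKO iOLs. All iOL libraries were below all OPC libraries here too. The log2 fold change was -0.77 ± 0.26 (SE; edgeR adjusted p = 0.0367) in controls, a call lost in 11 of 17 alternative fits, and without OPC control 1 it was -0.18 (edgeR adjusted p = 0.176). It was -0.40 ± 0.24 (SE; edgeR adjusted p = 0.208) in cKO cultures. With only the groups compared, Rps14 was among 10 members called lower in cKO cultures, where 3339 of all genes were.

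Rpl7l1 passed as higher with stage in the cKO cultures, but its rise was not shown to be particular to them. This paralogue of Rpl7 lies on chromosome 17 at 46773907 to 46782656, and is known to take part in ribosome assembly. It was at 98.0 and 90.3 CPM in control OPCs, 63.9, 64.7 and 85.4 CPM in cKO OPCs, 108 and 109 CPM in control iOLs and 106 and 104 CPM in cKO iOLs. All 4 iOL libraries were above all 5 OPC libraries, and the 2 lowest were the day 7 cKO OPC libraries. Rpl7l1's log2 differences between day 6 libraries alone were 0.26 in controls and 0.30 in cKO cultures. Its log2 fold change was 0.56 ± 0.14 (SE; edgeR adjusted p = 0.00978) in cKO cultures and 0.20 ± 0.15 (SE; edgeR adjusted p = 0.292) in controls. The call was lost when either cKO iOL library was left out, with adjusted p-values of 0.0685 and 0.0552. Rpl7 itself was at 0.08 ± 0.18 (SE) in cKO cultures and -0.05 ± 0.20 (SE) in controls.

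**Figure D5:**
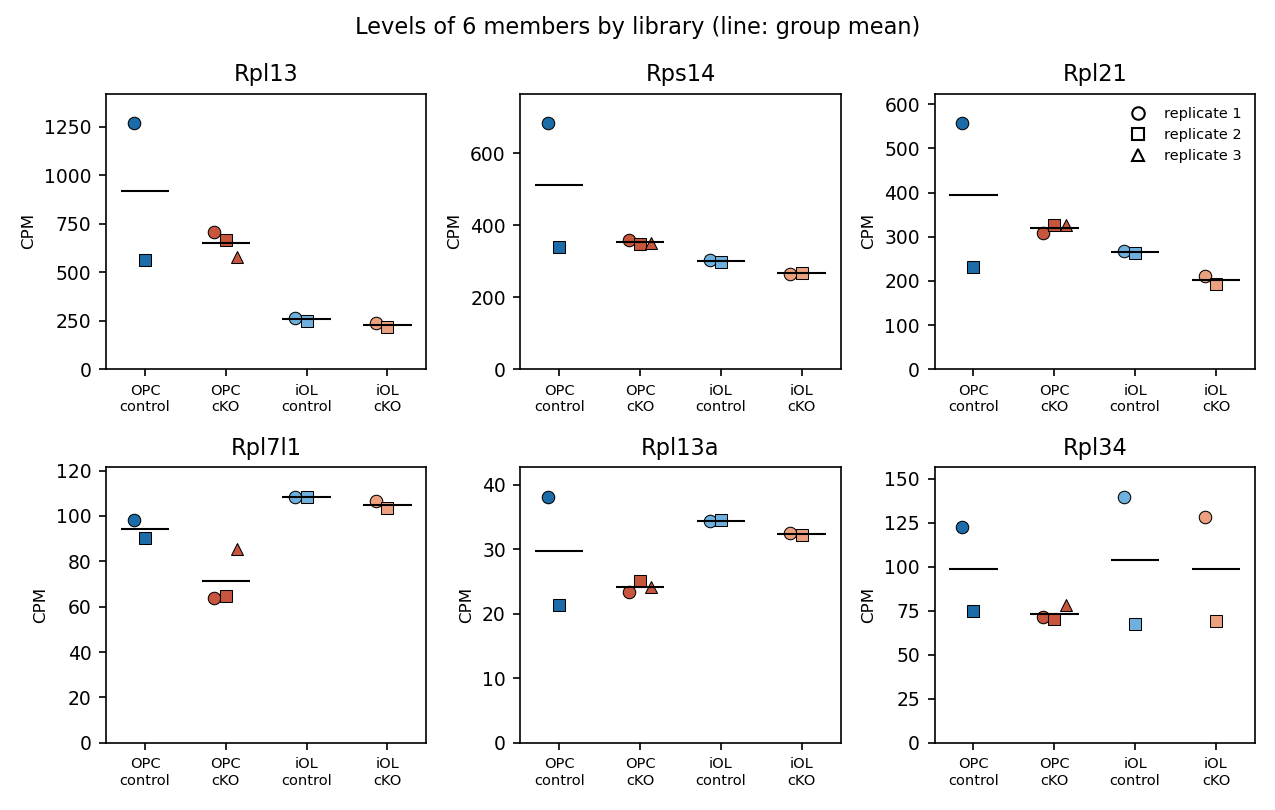
CPM of 6 members in each library by group, 1 point per library (shape gives the replicate number) with the group mean as a line, each panel on its own axis from 0. Rpl13 is lower in all iOL libraries than in any OPC library, Rpl7l1 is higher, and Rpl34 differs more between replicates than between groups in iOLs.

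Stage comparisons in controls also shifted with OPC control 1. Without it the median log2 fold change was 0.09, where that of all genes was -0.002. Without OPC control 2 the median was -0.70, where that of all genes was -0.07. Counted by library, all 4 iOL libraries lay below all 5 OPC libraries for 7 of 80 members, among them Rpl10a, Rpl13, Rpl23a, Rpl28 and Rps14, against 22.6% of all genes. The same 7 were counted without OPC control 1, against 25.4%. They lay above for 1, Rpl7l1, against 20.3%, and without OPC control 1 for 3, Rpl13a, Rpl7l1 and Rps27l, against 25.0%.

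Levels were also set against the members' own median in each library, which removes a shift that all members share. On that scale 6 members were lower in every iOL than in every OPC library, against 10.6% of all genes, and 13 were higher, against 27.9%. The 6 were the 7 counted above without Rpl28, and the same 6 were found without OPC control 1, against 19.8%. Without that library 22 were higher, against 28.1%, including the same 13. Rpl13a, Rpl7l1 and Rps27l were among these. Neither share of members was above the background.

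Spread within the set was described over the 8 libraries other than OPC control 1. On the scale relative to the member median, the SD of a member's log2 level over these libraries had a median of 0.09. That of all genes was 0.34, but the scale removes what members share and not what other genes share. Members also lay at higher CPM, in OPC control 2 at a median of 258 against 34.0 over all genes. These SDs therefore do not show that members kept tighter proportions than other genes. The widest was Rpl13 with an SD of 0.71, followed by Rpl34 with 0.42, Rpl7l1 with 0.34, Rpl13a with 0.33, Rpl39 with 0.27, Rps4l with 0.25, Rpl21 with 0.23 and Rps27l with 0.21. Of the 8 widest, 3 are paralogues.

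Rpl13a, a large-subunit protein on chromosome 7 at 45125563 to 45128745, did not pass with stage in the fit of all 9 libraries. It was at 38.2 and 21.3 CPM in control OPCs, 23.3, 25.1 and 24.2 CPM in cKO OPCs, 34.4 and 34.6 CPM in control iOLs and 32.6 and 32.3 CPM in cKO iOLs. OPC control 1 was above all iOL libraries and the other 4 OPC libraries were below them. The log2 fold change was 0.21 ± 0.23 (SE; edgeR adjusted p = 0.467) in controls and 0.42 ± 0.21 (SE; edgeR adjusted p = 0.133) in cKO cultures. Between day 6 libraries alone, the log2 differences of Rpl13a were 0.69 in controls and 0.42 in cKO cultures. Rpl39, a small protein of the exit tunnel, was at 158 and 109 CPM in control OPCs, 85.6, 98.4 and 127 CPM in cKO OPCs, 144 and 144 CPM in control iOLs and 118 and 131 CPM in cKO iOLs. Its groups overlapped, with log2 fold changes of 0.11 ± 0.21 (SE) in controls and 0.26 ± 0.19 (SE) in cKO cultures.

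Rpl34, a large-subunit protein on chromosome 3 at 130726827 to 130730398, split the iOL libraries by replicate number. It was at 139.8 and 67.2 CPM in control iOLs and at 128 and 69.3 CPM in cKO iOLs. In OPCs it was at 122 and 75 CPM in controls and at 71.5, 70.2 and 78.0 CPM in cKO libraries. Both first iOL libraries were above every OPC library, and both second ones were below every OPC library. The log2 fold change in cKO cultures was 0.43 ± 0.34 (SE; edgeR adjusted p = 0.338). The first iOL library was above the second in both genotypes for 56 of 80 members, against 31.0% of all genes. Across the 80 members the difference between the replicates in controls and in cKO iOLs had a Pearson r of 0.76 and a Spearman rho of 0.38, and without Rpl34 r was 0.34, against 0.24 over all genes. What the replicate numbers stand for is not stated in the labels.

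Rpl21, on chromosome 5 at 146832890 to 146837032, was at 557 and 231 CPM in control OPCs and at 308, 326 and 326 CPM in cKO OPCs. The 3 cKO libraries lay close together between the 2 controls. In cKO cultures its stage difference was -0.66 ± 0.29 (SE; edgeR adjusted p = 0.098), with both cKO iOL libraries, at 212 and 193 CPM, below all 3 cKO OPC libraries. DESeq2 called it lower.

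The stalk proteins recruit elongation factors to the large subunit. Rplp0, their base, was at 1014 and 679 CPM in control OPCs, 743, 695 and 748 CPM in cKO OPCs, 721 and 706 CPM in control iOLs and 650.5 and 636 CPM in cKO iOLs. Apart from OPC control 1 these libraries lay near each other, with both cKO iOL libraries the lowest. Rplp0, Rplp1 and Rplp2 had log2 fold changes of -0.22, -0.45 and -0.51 in cKO OPCs, -0.15, -0.19 and -0.15 in cKO iOLs and -0.25, -0.29 and -0.33 with stage in controls, and none passed. Rpsa, a small-subunit protein also described as a laminin receptor, was at 1161 and 642 CPM in control OPCs, 661, 613 and 697 CPM in cKO OPCs, 758 and 753 CPM in control iOLs and 623 and 617 CPM in cKO iOLs. Its cKO iOL libraries were below both iOL controls, with a log2 fold change of -0.28 ± 0.24 (SE; edgeR adjusted p = 0.574). Rpl4, which lines the exit tunnel, was at -0.20 ± 0.18 in cKO OPCs, -0.13 ± 0.19 in cKO iOLs and -0.31 ± 0.19 (SE) with stage in controls.

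In the fit of all 9 libraries, the paralogues did not pass in any comparison but the one given for Rpl7l1. Rps27l had 60.4 and 61.3 CPM in control iOLs and 57.9 and 59.7 CPM in cKO iOLs, a narrow range above the OPC libraries other than OPC control 1. Its stage fold changes were 0.07 ± 0.20 in controls and 0.16 ± 0.18 (SE) in cKO cultures, and those of Rps27 were -0.51 ± 0.25 and -0.09 ± 0.23 (SE). Over the alternative fits, the stage fold change of Rps27l in controls ran from -0.25 to 0.47. Rpl22l1, whose splicing is known to be controlled by Rpl22, was at 79.0 CPM in OPC control 1 and between 43.3 and 52.3 CPM in the other 8 libraries. Rpl22 was at 375 CPM in OPC control 1 and between 244 and 287 CPM elsewhere, and both cKO iOL libraries, at 244 and 253 CPM, lay below both control iOL libraries, at 263 and 265 CPM. Rps4l was at 41.4 CPM in OPC control 1 and between 19.7 and 32.8 CPM elsewhere. Its counterpart Rps4x had log2 fold changes of -0.42 ± 0.19 in cKO OPCs and -0.10 ± 0.21 (SE) in cKO iOLs.

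Ribosomal protein genes have many processed pseudogenes and close paralogues, and the treatment of reads matching several places is not stated in the labels. Single-member counts are uncertain to that extent, Rps4l, Rps27l, Rpl22l1 and Rpl13a included. The pseudogene rows in the table, Rpl14-ps1, Rps15a-ps5 and Rps19-ps3, were at 0.586 to 3.75 CPM.

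Factors that build ribosomes were counted beside the proteins themselves. Of 65 ribosome biogenesis factors, 25 rose and 4 fell with stage in controls, with a median of 0.21, and 21 rose and 1 fell in cKO cultures, with a median of 0.22. The shares of all genes were 21.0% higher and 25.3% lower in controls and 18.5% and 21.8% in cKO cultures. Without OPC control 1 the counts were 36 and 2 in controls, with a median of 0.47, and 28 and 1 in cKO cultures. These genes and the ribosomal proteins were not tested against each other. Tsr1, which matures the small subunit, was at 33.5 and 37.0 CPM in control OPCs, 33.9, 37.0 and 37.8 CPM in cKO OPCs, 66.6 and 62.1 CPM in control iOLs and 59.1 and 57.0 CPM in cKO iOLs. All iOL libraries were above all OPC libraries, OPC control 1 included. Tsr1 rose by 0.87 ± 0.12 on the log2 scale (SE; edgeR adjusted p = 0.000431) in controls. Mphosph10, of the small-subunit processome, rose by 1.39 ± 0.21 (SE; edgeR adjusted p = 0.000724) and the nucleolar helicase Ddx21 by 0.77 ± 0.11 (SE; edgeR adjusted p = 0.000506).

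Among the 28 regulators of the Myc and mTORC1 pathways, 9 rose and 4 fell with stage in controls and 6 rose and 3 fell in cKO cultures. Myc, which drives ribosome synthesis in many cells, was at 32.2 and 31.6 CPM in control OPCs, 30.7, 29.6 and 29.5 CPM in cKO OPCs, 129.9 and 108 CPM in control iOLs and 93.8 and 77.8 CPM in cKO iOLs. The 5 OPC libraries lay close together and all iOL libraries far above them. Myc rose by 1.90 ± 0.14 on the log2 scale (SE; edgeR adjusted p = 1.31e-05) in controls and by 1.52 ± 0.12 (SE; edgeR adjusted p = 2.16e-05) in cKO cultures. Mycl fell by 0.66 ± 0.18 (SE; edgeR adjusted p = 0.0165) in controls, a call lost without OPC control 1 (edgeR adjusted p = 0.0657), and by 1.47 ± 0.18 (SE; edgeR adjusted p = 0.000221) in cKO cultures. It was also lower in cKO than in control iOLs, at -1.16 ± 0.19 (SE; edgeR adjusted p = 0.00552).

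Among 27 elongation factors and other TOP-type genes, 1 rose and 6 fell with stage in controls and 1 rose and 4 fell in cKO cultures. The snoRNA host genes Snhg12 and Snhg8 fell, by 1.52 ± 0.34 (SE; edgeR adjusted p = 0.00599) and 1.29 ± 0.31 (SE; edgeR adjusted p = 0.00808) on the log2 scale in controls. Without OPC control 1 they fell by 0.75 and 0.59, and 2 TOP-type genes rose and 3 fell. Vim, an intermediate filament gene, rose by 1.67 ± 0.36 (SE; edgeR adjusted p = 0.0049). Mitochondrial ribosomal proteins counted 7 higher and 7 lower of 77 with stage in controls, 11 and 1 without OPC control 1, and 16 and 3 in cKO cultures. Initiation factors counted 8 higher and 4 lower of 52 in both genotypes, and 8 and 1 in controls without OPC control 1. Proteasome subunits counted 5 higher and 4 lower of 37 in controls, 16 and 1 without OPC control 1, and 6 and 1 in cKO cultures. For oxidative phosphorylation the counts of 77 subunits were 1 higher and 9 lower in controls, 14 and 3 without OPC control 1, and 2 and 0 in cKO cultures. Aminoacyl-tRNA synthetases counted 3 higher and 1 lower of 17 in controls, 7 and 1 without OPC control 1, and 5 and 1 in cKO cultures. Leaving OPC control 1 out of the fit also moved the counts in cKO cultures, whose libraries stayed the same. They became 25 higher and 5 lower for mitochondrial ribosomal proteins, 13 and 6 for initiation factors, 16 and 1 for the proteasome, 18 and 3 for oxidative phosphorylation and 9 and 1 for synthetases. For TOP-type genes they became 2 and 11. The fit shares its estimate of the spread over all groups. Genes of dividing cells fell in the same comparisons, 16 of 17 in controls and 14 of 17 in cKO cultures. Their part in the levels of the ribosomal protein genes was not tested.

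Between Eed cKO and control OPCs, edgeR called 0 genes in either direction in the 7 lists of mitochondrial ribosomal proteins, initiation factors, TOP-type genes, biogenesis factors, oxidative phosphorylation, proteasome and aminoacyl-tRNA synthetases. At an unadjusted p under 0.05, 48 of 77 mitochondrial ribosomal proteins were lower, 57 of 77 oxidative phosphorylation subunits, 24 of 37 proteasome subunits, 16 of 52 initiation factors, 10 of 65 biogenesis factors, 6 of 17 synthetases and 5 of 27 TOP-type genes. At that threshold 2 initiation factors, 1 oxidative phosphorylation subunit and 1 proteasome subunit were higher, and all genes were not counted. DESeq2 called 7 mitochondrial ribosomal proteins, 8 oxidative phosphorylation subunits, 1 proteasome subunit and 1 initiation factor lower, and 1 initiation factor higher. Over all genes DESeq2 called 239 lower and 767 higher. Without OPC control 1 the medians of these lists were between -0.18 and 0.08, and edgeR called 1 oxidative phosphorylation subunit, as higher.

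In cKO iOLs initiation factors counted 1 higher and 1 lower, proteasome subunits 2 higher, oxidative phosphorylation subunits 1 higher and the Myc and mTORC1 list 2 higher and 1 lower. The list of ribosomal stress and p53 feedback genes, to which Rps27l also belongs, counted 3 higher of its 11 other measured genes in cKO OPCs. These were Cdkn1a, an inhibitor of cell division, at 2.65 ± 0.27 (SE; edgeR adjusted p = 0.000967), Ccng1 at 1.17 ± 0.16 (SE; edgeR adjusted p = 0.00456) and Trp53inp1 at 1.26 ± 0.18 (SE; edgeR adjusted p = 0.00585). All 3 were also called without OPC control 1. Cdkn1a was at 7.62 and 5.05 CPM in control OPCs and at 40.9, 38.7 and 39.3 CPM in cKO OPCs, groups that lay far apart. Rps27l in the same libraries did not pass, and its fold change depended on OPC control 1, being -0.14 with it and 0.27 without it (edgeR adjusted p = 0.266).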

How the data were processed

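RNA-seq counts of 9 libraries were analysed. Per the submitters' processing notes, the authors used cutadapt 1.14, STAR 2.6.0 with the mm10 genome and featureCounts (Subread 1.6.2), and deposited unnormalised counts. All 13549 genes have a count above 0 in every library, so the table may not list every gene that was counted. A gene's absence from it is therefore not read as a result. The whole table was fitted in edgeR 4.0.16 (limma 3.58.1, R 4.3.3), with TMM factors and 1 mean for each of the 4 groups, by the quasi-likelihood test; DESeq2 1.42.0 served as an alternative. The filter at a minimum count of 10 removed 0 genes. A gene was called where its p, adjusted by Benjamini and Hochberg's method across the table, was under 0.05. SEs are the log2 fold change divided by the square root of the test's F. Log2 CPM used a prior count of 2. With 5 residual degrees of freedom and 2 or 3 libraries a group, small differences are not detectable. Shares and groups that do not overlap are descriptions without a test. Promoters come from RefSeq. Transcript lengths were not used, so CPM does not rank genes by level.

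The members and gene lists were chosen with earlier results of these data known. Named members are those that passed, up to 4 a direction, or the 3 most extreme, the paralogues, the stalk and Rpsa, the 3 with the highest mean CPM, a choice that favours long transcripts, and those farthest from the members' median. Of other lists at most 3 genes were named, those with the smallest p. Rps13, Rps15a, Rpl34 and members listed in counts of overlap were named after their values were seen. The scripts were tested on simulated data. The immunoprecipitation samples were not used here. Results of a few genes are not reported here.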

Additional observations from a re-analysis of the deposited data

How the results depend on the processing

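The 5 comparisons were refitted under 17 alternatives of scaling, filter, tool, samples and covariates. No named member that was called in the main fit reversed direction in that comparison. With stage in controls, members not called there did change sign. The members' median log2 fold change was 0.09 without OPC control 1 and -0.70 without OPC control 2. Members lower in cKO OPCs numbered 2 with the replicate number as a block and 1 with DESeq2, and 0 to 77 with 1 library left out. Members lower in cKO iOLs numbered 10 with only the groups compared and 0 to 4 with 1 library left out, and none was higher in either stage under these (0 to 0). With stage in controls, lower members numbered 1 with only the groups compared, 1 with a postnatal-day term and 10 with DESeq2, and 1 to 73 with 1 library left out (higher 0 to 5). In cKO cultures, higher members numbered 2 with only the groups compared and 2 with a postnatal-day term (0 to 2 with 1 library left out), and lower ones 10 with only the groups compared, 2 with DESeq2 and 1 to 15 with 1 library left out. In the difference of cKO effects, 0 to 54 were higher and 0 to 1 lower with 1 library left out. The highest counts for cKO OPCs, stage in controls and the difference of cKO effects came without OPC control 2, leaving 1 control OPC library. In that fit the members' median log2 fold changes were -0.78, -0.70 and 0.59, where those of all genes were 0.01, -0.07 and 0.06. The highest count of lower members in cKO cultures came without OPC control 1 or without OPC control 2, neither in that comparison. A group left with 1 library was assumed to vary like the others, and these counts rest on that assumption. Counts over all genes shifted as well. With only the groups compared, 1552 genes were called lower in cKO iOLs, where the main fit called 475. With stage in cKO cultures 3339 were, where the main fit called 2956. The cause of these shifts was not tested. The replicate numbers pair no samples by the labels, and the replicate block changed no other count by over 1.5 times. The count of members highest in iOLs without OPC control 1, 3 in CPM and 22 relative to the member median, was added after seeing the data. So were the other lists' counts without that library.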
